A study of Homo sapiens with 6 samples.

Results

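The miR-130 and miR-301 family was examined in Panc-1 cells, an established human pancreatic ductal adenocarcinoma line, with and without TGF-β, a secreted cytokine that the study used to induce the epithelial–mesenchymal transition (EMT). The 6 members were taken by name from the 2565 miRNAs on the array: hsa-miR-130a-3p, hsa-miR-130b-3p, hsa-miR-130b-5p, hsa-miR-301a-3p, hsa-miR-301a-5p and hsa-miR-301b, which the array lists as hsa-miR-301b-3p. Total RNA from cells given TGF-β at 10 ng/mL for 72 h was hybridized to 3 arrays, and RNA from control cells, given 0 ng/mL for the same time, to 3 more. The question for the family was whether its levels differed between the groups. All arrays come from 1 line of cells, and the labels do not say whether the arrays of a group came from separate cultures, so that p-values measure the spread between these RNA samples, which may be technical.

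A miRNA is cut from a hairpin precursor that carries a strand on each side, the 5p and the 3p arm, and it represses mRNAs that pair with its seed, bases 2 to 8 from its 5′ end. In the miR-130 and miR-301 family the 3p arms are the strands usually loaded into Argonaute, the protein that holds the miRNA, and they share a seed. They are known for targets such as TGFBR2, a receptor for TGF-β, and SMAD4, which carries the TGF-β signal to the nucleus, and miR-301a is often described as raised in pancreatic cancer.

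The mature sequences show which members share a seed and how close the RNAs are that the probes must tell apart. RefSeq (GRCh38.p14) held the mature sequence of 5 of the 6 members, all but hsa-miR-130a-3p. The seed is in capitals in the 3p arms, and miR-454-3p, which is not a member, is shown because it has the same seed.
hsa-miR-130b-3p: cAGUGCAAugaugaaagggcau
hsa-miR-301a-3p: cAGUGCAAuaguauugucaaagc
hsa-miR-301b-3p: cAGUGCAAugauauugucaaagc
hsa-miR-454-3p: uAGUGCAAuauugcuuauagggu

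The seed of these sequences was found in 6 of the 2370 mature human miRNAs of the table (0.253%), and all 6 were on the array: the 3 members shown, miR-454-3p, miR-3666 and miR-4295. miR-301a-3p and miR-301b-3p were identical at 21 of 23 positions, counted from the 5′ end, with the differences A10G and G11A. miR-130b-3p and miR-301b-3p shared their first 12 bases. How far the probes separate such sequences is not given in the sources used here, so the signals of these miRNAs may include each other's RNA.

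The 5p arms have other seeds, shown here in capitals to set them beside the 3p arms.
hsa-miR-130b-5p: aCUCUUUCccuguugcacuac
hsa-miR-301a-5p: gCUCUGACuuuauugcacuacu
These seeds differ from each other and from that of the 3p arms. Both 5p arms hold the reverse complement of the 3p seed starting at base 13, the stretch that lies opposite the seed in the precursor.

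The members come from 4 genes at 3 places in the genome. MIR130A lies on chromosome 11 of GRCh38.p14 from 57641198 to 57641286 on the plus strand, inside the lncRNA gene MIR130AHG. MIR301A lies on chromosome 17 from 59151136 to 59151221 on the minus strand, inside the interval of SKA2, a protein-coding gene for a part of the spindle and kinetochore complex. MIR301B (21652981 to 21653058) and MIR130B (21653304 to 21653385) lie 246 bp apart on the plus strand of chromosome 22, inside the interval of the transcribed pseudogene LOC107985532. The table gives gene intervals without exons, so exonic and intronic positions were not separated.

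Every member was detected on all 6 arrays, that is, its signal exceeded the mean of the blank spots by more than 2 SD. Against the scanner's local background, miR-130b-5p and miR-301b-3p were above it on 5 arrays and below it on control array 1, where the background was 1.01 and 1.03 of the signal. The margin over the blanks set the members apart by arm. In units of the blank spots' SD, the excess over the blank mean was 246.5 to 1618 for the 3p arms of miR-130a, miR-130b and miR-301a and 42.7 to 87.0 for miR-301b-3p. The 5p arms were near the limit, at 3.48 to 6.62 for miR-130b-5p and 4.76 to 7.47 for miR-301a-5p. Signals of different probes depend on each probe's affinity and labelling and were not read as relative amounts of the miRNAs.

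No member was changed by TGF-β at an adjusted p under 0.05 in limma, and none had an unadjusted p under 0.05 with all arrays in the fit. Without control replicate 1, 1 member did, miR-130a-3p (log2 fold change -0.21, adjusted p = 0.110 from limma). Of the 1457 miRNAs tested on these arrays, 58 (3.98%) passed the adjusted threshold, 38 higher and 20 lower in TGF-β-treated cells. The log2 fold changes of the members ran from -0.33 to 0.06 with a median of -0.10, compared with a median of -0.01 and quartiles of -0.15 and 0.16 over all tested miRNAs. Of the 6, 4 had a value below 0 and 2 above. The levels below are intensity units after subtraction of the blank-spot mean and quantile normalization between arrays, and a log2 fold change is the TGF-β mean of their log2 values minus the control mean.

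**Figure D1:**
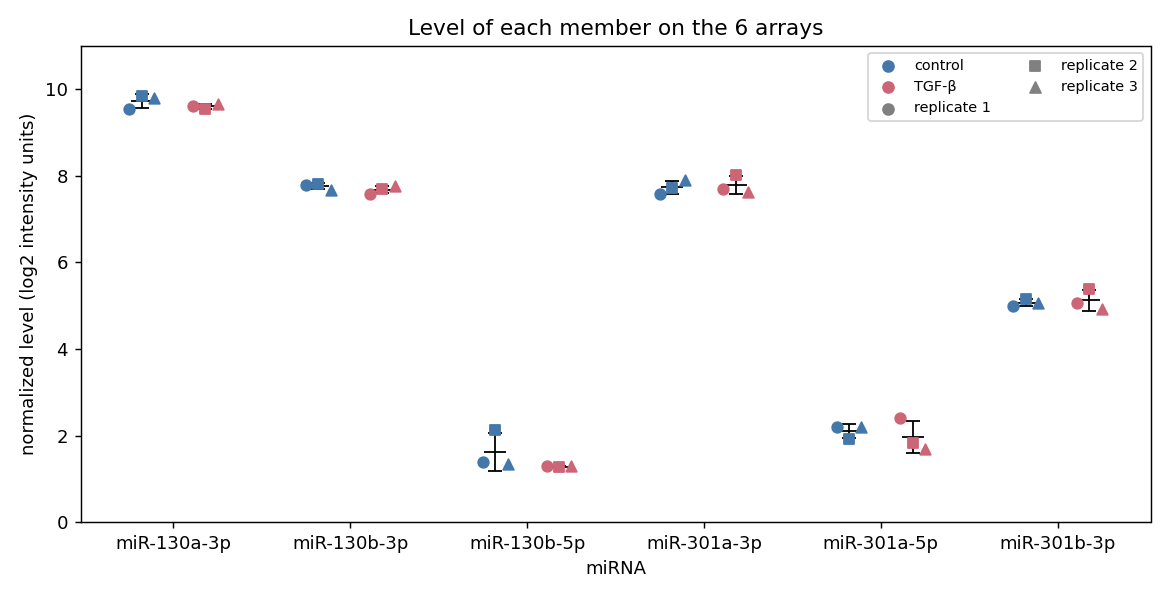
Normalized level of each member (log2 intensity units) on the 3 control arrays (blue) and the 3 TGF-β arrays (red), with the marker shape giving the replicate number and black bars the mean ± SD of a group. The groups overlap for every member except miR-130b-5p, which is near the background.

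hsa-miR-130a-3p, the member encoded on chromosome 11, is best known from blood vessel growth. Its normalized levels were 744.5, 917.5 and 883.2 units on control arrays 1, 2 and 3 and 785.3, 745.3 and 803.7 units on TGF-β arrays 1, 2 and 3. The lowest array was a control, and all TGF-β arrays lay within the control range. The log2 level averaged 9.72 ± 0.16 (SD, n = 3) for the control arrays and 9.60 ± 0.06 (SD, n = 3) for the TGF-β arrays. The log2 fold change was -0.12 (95% interval -0.30 to 0.06, adjusted p = 0.566 from limma), which as a ratio runs from 0.814 to 1.04. It was -0.21 without control replicate 1, the array with the lowest level, and -0.05 without control replicate 2.

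hsa-miR-130b-3p, encoded beside miR-301b, showed the narrowest interval of the members. Its normalized log2 levels were 7.79, 7.82 and 7.68 in control cells and 7.59, 7.70 and 7.76 after TGF-β. The groups overlapped, with TGF-β array 3 above control array 3. The log2 fold change was -0.08 (95% interval -0.25 to 0.09, adjusted p = 0.739 from limma), a ratio between 0.842 and 1.06.

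hsa-miR-301a-3p, from the SKA2 locus, gave 192.6, 210.2 and 238.0 units in control cells and 207.7, 261.4 and 199.1 units after TGF-β. The highest value was that of TGF-β array 2, while the other two TGF-β arrays lay inside the control range. The log2 fold change was 0.06 (95% interval -0.19 to 0.31, adjusted p = 0.904 from limma). Without TGF-β replicate 2 it was -0.07 and without control replicate 1 it was -0.01, so no direction was established. hsa-miR-301b-3p, which differs from it at the positions given above, had the same high array, with 31.8, 35.8 and 33.3 units in control and 33.6, 41.7 and 30.2 units in TGF-β-treated cells. Its log2 fold change was 0.05 (95% interval -0.23 to 0.34, adjusted p = 0.925 from limma), and -0.08 without TGF-β replicate 2. With the blank-spot background the upper bounds of the intervals were ratios of 1.24 and 1.26, and with the local background that of miR-301a-3p was wider, at 1.45 on the log2 scale.

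The 5p arms, which are usually the strands discarded from the precursor, were measured with less precision. hsa-miR-130b-5p had 2.62, 4.39 and 2.53 units in control and 2.45, 2.42 and 2.45 units in TGF-β-treated cells. The TGF-β arrays all lay below the controls (2-sided p = 0.1 by exact permutation, which is as low as 3 against 3 can go), with control arrays 1 and 3 close above them and control array 2 farther off. It was the only member with separate groups, and only after quantile normalization: before it the blank-subtracted signals overlapped, at 2.36 to 4.12 units in control and 2.28 to 2.63 units after TGF-β, as did the deposited values. Groups were apart for 18.9% of the tested miRNAs with a value on every array, and apart with TGF-β lower for 10.1%. The log2 fold change of miR-130b-5p was -0.33 (95% interval -0.94 to 0.27, adjusted p = 0.668 from limma), and -0.08 without control replicate 2. hsa-miR-301a-5p had 4.63, 3.80 and 4.59 units in control and 5.27, 3.56 and 3.21 units in TGF-β-treated cells. Both the highest and the lowest array were from treated cells, and the log2 fold change was -0.14 (95% interval -0.64 to 0.36, adjusted p = 0.871 from limma). It was -0.36 without TGF-β replicate 1 and 0.0042 without TGF-β replicate 3. The intervals of the 5p arms allow changes to 0.522-fold and 0.640-fold or up to 1.21-fold and 1.29-fold, which were not resolved at these signals.

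**Figure D2:**
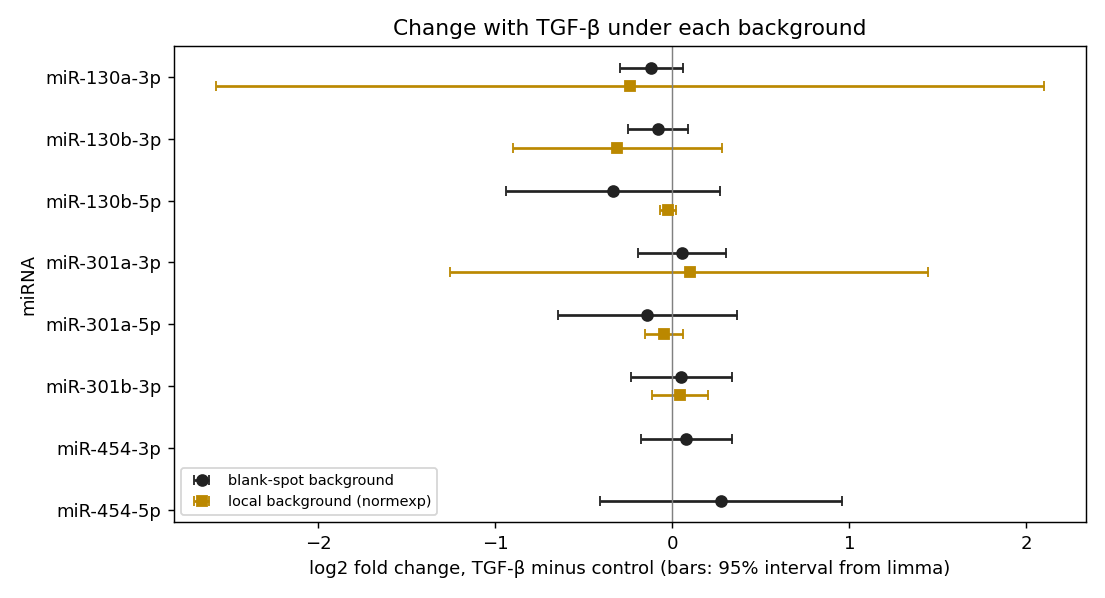
Log2 fold change of each member, TGF-β minus control, with its 95% interval from limma, for the blank-spot background (black circles) and, for the members, the local background corrected with normexp (brown squares). miR-454-3p and miR-454-5p, which are not members, are shown for the blank-spot background. Every interval crosses 0, and with the local background the intervals of miR-130a-3p and miR-301a-3p span more than 2 log2 units.

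The SDs of the log2 levels within a group of arrays were 0.06 to 0.24 for the 3p arms, and 0.01 to 0.45 for the 5p arms. The standard errors in limma were 0.08 for miR-130a-3p and miR-130b-3p, 0.11 for miR-301a-3p and 0.13 for miR-301b-3p, and 0.23 to 0.27 for the 5p arms.

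**Figure D3:**
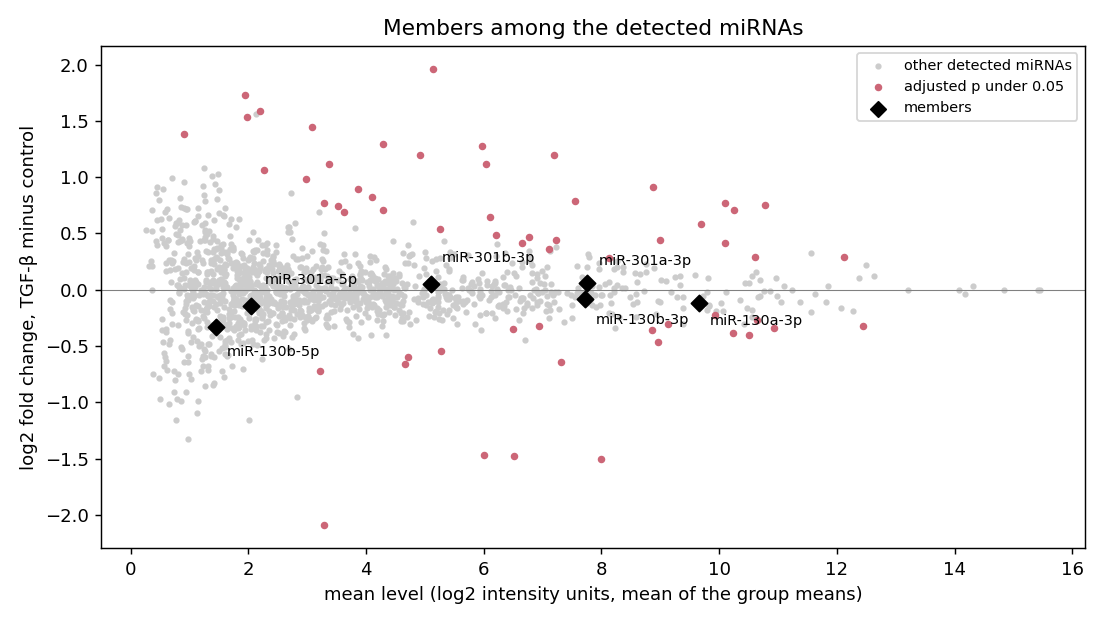
Log2 fold change against mean log2 level for the 1457 detected miRNAs, with the 58 at an adjusted p under 0.05 in red and the 6 members as black diamonds. No member is among the called miRNAs, and the 5p arms lie at the dim end.

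For the precursors with both arms among the members, the arms were compared within each array, which tests for unequal change of the arms and does not compare their amounts. The log2 difference of 3p minus 5p for miR-130b was 6.14 ± 0.40 (SD, n = 3) on the control arrays and 6.40 ± 0.09 (SD, n = 3) on the TGF-β arrays, which differ by 0.26 (exact permutation test, 2-sided p = 0.4). Without control replicate 2 this was 0.02, and under 3 other background settings it was below 0, at -0.03 to -0.28, so no direction was established. For miR-301a it was 5.62 ± 0.22 (SD, n = 3) and 5.82 ± 0.46 (SD, n = 3), a difference of 0.20 (exact permutation test, p = 0.5), which without TGF-β replicate 2 was -0.00058. After Benjamini-Hochberg adjustment over the 2 precursors both were 0.5. The ranges of the groups overlapped for both precursors. With 3 arrays against 3 no p below 0.1 was possible.

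The miRNAs that share the seed but are not members were also not called where they were measured. miR-454-3p, whose gene lies 13264 bp from MIR301A in SKA2, was detected on all 6 arrays, with 54.0, 71.3 and 71.2 units in control and 70.5, 68.9 and 66.5 units in TGF-β-treated cells. Its log2 fold change was 0.08 (95% interval -0.18 to 0.34, adjusted p = 0.860 from limma). The lowest array was control array 1, and without it the value was -0.05. Its 5p arm, miR-454-5p, was close to the background and had a log2 fold change of 0.28 (95% interval -0.41 to 0.96, adjusted p = 0.791 from limma), which ran from 0.08 without control replicate 1 to 0.65 without control replicate 2. miR-3666 was not above the detection limit on any array and miR-4295 only on TGF-β array 2, so neither was tested. The 5p arms of MIR130A and MIR301B, which are on the array and outside the family list, were also mostly below the limit: miR-130a-5p was detected on 0 arrays and miR-301b-5p only on TGF-β array 1, at 2.24 SDs above the blank mean.

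The authors' processed values, which are the blank-subtracted signals scaled so that each array's detected miRNAs have a median of 25, gave other ratios for the 3p arms. The deposited values of miR-301a-3p were 663, 851 and 905 in control and 816, 1348 and 801 after TGF-β, and the means stood in a ratio of 1.23. Those of miR-301b-3p averaged 129 ± 13.5 (SD, n = 3) in control and 156 ± 55.2 (SD, n = 3) after TGF-β, where array 2 reached 220, and their ratio was 1.22. In both, TGF-β array 2 was the highest and the other TGF-β arrays lay in the control range. The ratios were 1.04 for miR-130a-3p, 1.06 for miR-130b-3p and 1.02 for miR-301a-5p.

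At the study's threshold of 0.87 and its mirror, 1.15, 2 of the 6 members were above in the deposited values, compared with 36.4% of the 1719 miRNAs with a value in both groups. miR-130b-5p was the 1 member below, at 0.868 from values of 10 to 18, compared with 10.8% of those miRNAs. TGF-β array 2 had the largest scale factor (4.78, compared with 3.37 to 4.31 for the others) and the most detected miRNAs, 1787 compared with 1531 to 1604. Without it, 0 of the 6 members were above the mirror (22.5% of 1628 miRNAs) and the ratios of miR-301a-3p and miR-301b-3p were 1.00 and 0.968. miR-130b-5p was again the 1 member below 0.87 (22.9% of those miRNAs). This threshold carries no test of the spread between arrays.

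**Figure D4:**
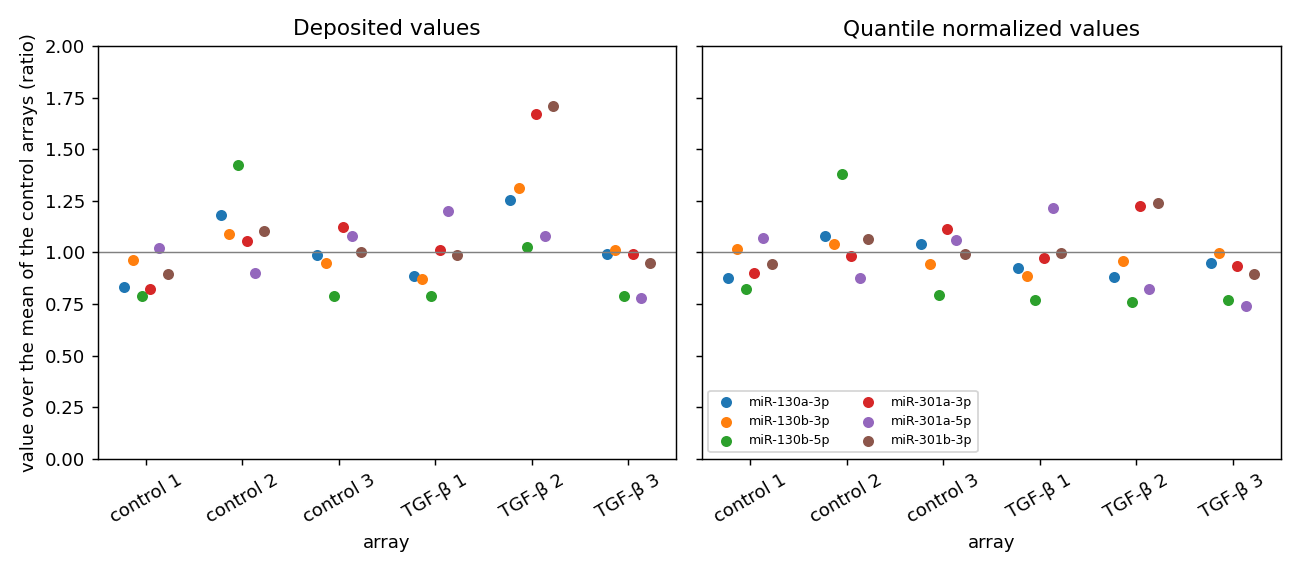
Value of each member on each array over the mean of the 3 control arrays, for the deposited values (left) and the quantile normalized values (right), with each color a member. In the deposited values all 6 members lie between 1.03 and 1.71 on TGF-β array 2, and after quantile normalization between 0.761 and 1.24.

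The background used for the spots set the precision for the bright members. The scanner's local background was 0.422 to 0.990 of the spot's own signal for miR-130a-3p and 0.431 to 0.968 for miR-301a-3p, depending on the array. Corrected with it by limma's normexp method, the log2 fold change of miR-130a-3p was -0.24 with a standard error of 0.96, and that of miR-301a-3p 0.10 with a standard error of 0.56. With it limma called 0 of the 1457 miRNAs at an adjusted p under 0.05, and 35 had an unadjusted p under 0.05. The standard errors of miR-130b-5p and miR-301a-5p were 0.019 and 0.044 with this method, which adds an offset of 50 units. They were 0.038 and 0.041 without background correction, and 0.27 and 0.23 with the blank-spot background. The cause of the narrow intervals was not tested.

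The 3 miRNAs whose profile over the 6 arrays was most like the mean of the 4 members with 3p arms, by the root mean square difference of log2 values centred on each miRNA's mean, were miR-148b-5p (0.029), miR-4306 (0.031) and miR-186-5p (0.038), of 1276 compared. The median over all of them was 0.20. The family profile itself moved little, between -0.08 on control array 1 and 0.10 on TGF-β array 2. The 3 miRNAs were picked for nearness to this profile, so their small differences between the groups follow from the choice.

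The array names carry 1 code for the controls and another for the treated samples. If it is the slide, which the labels do not say, slide and treatment cannot be told apart. Signals were low in general, with a median miRNA spot of 20.4 to 24.1 units against detection limits of 19.6 to 22.9. Over the whole array, 1282 of the 2565 miRNAs were detected on all 6 arrays. Of the marker lists, this held for 2 of 6 epithelial (miR-200a-3p and miR-200b-3p), 0 of 3 pancreatic, 2 of 5 blood and 3 of 4 fibroblast and smooth muscle miRNAs. It also held for 1 of 2 neuronal, 1 of 1 endothelial and 0 of 1 hepatocyte miRNAs. In deposited group means, the epithelial ones so detected stood at 21.7 to 32.7 and the fibroblast and smooth muscle ones at 8 to 42.3. The neuronal one stood at 1120 in control and 1210 after TGF-β. The endothelial miR-126-3p was lower after TGF-β, with a log2 fold change of -0.32 (adjusted p = 0.042 from limma), a call that the local background did not give. None of the 4 fibroblast and smooth muscle markers passed the threshold, with log2 fold changes of 1.57 for miR-143-3p (adjusted p = 0.0919 from limma), 0.44 for miR-145-5p, -0.0031 for miR-214-3p and -0.27 for miR-199a-5p. The part of other cells in these levels was not tested.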

How the data were processed

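Total RNA was labelled with Cy5 and hybridized to Toray 3D-Gene arrays, 1 per sample. The deposited scanner files hold unnormalized intensity for 3200 spots, combined by the authors' software over 3 scanner gains, with the local background of each spot. A second deposited table holds intensities processed by the authors, and it was rebuilt from the scanner files with a largest difference of 0 over 9663 values. The processing method is not given in the sources used here.

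Tests were run with limma 3.58.1 (R 4.3.3). Plots were made with matplotlib 3.10.9. The mean of the 320 blank spots, with 5% left out at each end, was subtracted, flagged spots (3 over all arrays) were left out, miRNA probes were quantile normalized, values were floored at 1 unit and log2 values were tested by lmFit and trended eBayes. P-values were adjusted by Benjamini-Hochberg over 1457 miRNAs, those above the detection limit on all arrays of either group. Local background was an alternative, because earlier results showed that it follows the signal. The members and lists were chosen with earlier results of these data known. Named miRNAs are the members, others with their seed or within 10 kb, other arms of the same or neighbouring genes (added after values were seen), the 3 nearest profiles, and 7 miRNAs of the marker lists, also picked after values were seen. The seed was read from miR-130b-3p. Tested on simulated data, the fit recovered most known changes, with a share of false calls above the adjusted threshold in most runs. That share bears on the count over all miRNAs. Whether the fit recovers changes as small as those of the members was not tested. The number of arrays limits the precision. The alternatives were other backgrounds, scalings, floors, filters, fits, a replicate block and each array left out.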

Additional observations from a re-analysis of the deposited data

How the results depend on the processing

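No member passed an adjusted p of 0.05 in any of the 24 alternatives, in which the lowest adjusted p of a member was 0.110. Over these the log2 fold change lay between -0.24 and 0.06 for miR-130a-3p, -0.31 and 0.07 for miR-130b-3p, -0.47 and -0.02 for miR-130b-5p, -0.07 and 0.26 for miR-301a-3p, -0.36 and 0.01 for miR-301a-5p, and -0.08 and 0.23 for miR-301b-3p. The sign turned in the deposited values for miR-130a-3p (0.062), miR-130b-3p (0.071) and miR-301a-5p (0.0093), where the median of all miRNAs was itself 0.11. With each array left out in turn, miR-130a-3p lay between -0.21 and -0.05, miR-130b-3p between -0.13 and -0.04, miR-130b-5p between -0.47 and -0.08, miR-301a-3p between -0.070 and 0.14, miR-301b-3p between -0.077 and 0.16, miR-301a-5p between -0.36 and 0.0042 and miR-454-3p between -0.053 and 0.15, and miR-454-5p between 0.08 and 0.65. The arm difference of miR-130b was -0.28 with the local background, -0.025 without background correction and -0.044 with normexp on the signal alone, and 0.025 to 0.39 with arrays left out, the lowest without control replicate 2. That of miR-301a lay between -0.00058 and 0.47 with arrays left out, the lowest without TGF-β replicate 2.

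The count over all miRNAs, 58 with 38 higher, was 0 with the local background, 35 (27 higher) without normalization, 31 (27 higher) in the deposited values, 31 with detection on at least 1 array, 20 without a filter, 31 without the trend, 17 by the methods' t-test (195 before adjustment) and 26 to 51 with an array left out (35 without control replicate 2, 26 without TGF-β replicate 2, 33 without TGF-β replicate 3). Median scaling gave 49, 37 of them higher, and the deposited values rescaled on shared miRNAs, chosen after seeing the data, 48, 36 of them higher. With the replicate block it was 61. Correlations between arrays were 0.984 to 0.992 with the blank-spot background. After each miRNA's group mean was subtracted, those of same-numbered arrays were 0.129, 0.112 and -0.0275, so the numbers were not counted as pairs. The causes were not tested. Depth is limited by signal over the blank spots, most of all for the 5p arms.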
